A study of Homo sapiens with 6 samples.

Results

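The 5 genes HINT1, HINT2, HINT3, FHIT and APTX encode human histidine triad proteins, and their expression was compared in HCT116 colorectal cancer cells with and without knockdown of POU2F1. The genes were taken by symbol from 20474 annotated genes, and each symbol matched 1 gene. HINT3 was chosen by its fall between these same groups, so its difference is described here and carries no test. The other 4 were added because they belong to the same protein family, whatever their values. HCT116 is an established line of epithelial colorectal cancer cells. Cells on 10 cm plates received an siRNA against POU2F1 (siPOU2F1, labelled as knockdown) or a control siRNA (sicontrol, labelled WT), and both groups were harvested 48 h after transfection. PolyA RNA was sequenced from 3 libraries per group. Nothing in the labels says that they were grown as separate cultures, so p-values reflect library-to-library spread that may be technical.

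Histidine triad proteins bind nucleotides and break the bond between a phosphate and a leaving group, with a histidine of the triad taking up the nucleotide for a moment. HINT1, HINT2 and HINT3 form the branch of nucleoside phosphoramidases, and HINT1 also removes AMP from the adenylates that lysyl-tRNA synthetase makes. HINT2 works in mitochondria. FHIT cleaves diadenosine polyphosphates and is a tumour suppressor gene at a common fragile site that is often broken in gut tumours. APTX encodes aprataxin, which takes AMP off the ends of broken DNA when a ligation has stalled.

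The coding stretch that gives the family its name is shown for each of the 5 genes, because it is what they share. Each line holds 7 codons, 5′ to 3′ on the coding strand, and the capitals mark the 3 histidine codons of the triad.
HINT1: CACgttCATctcCATgttctt
HINT2: CATctgCACattCATgtactt
HINT3: CACttgCACcttCATgttctg
FHIT: CACgttCACgtcCATgttctt
APTX: CATgtaCATcttCATgtgatc
These letters come from GENCODE release 29 on GRCh38, using the transcript with the longest coding sequence. A search of each coding sequence for 3 histidine codons spaced by 1 codon found the triad in 1 place per gene. It covered codons 143 to 149 of 182 in HINT3 (exon 4 of 5), 110 to 116 of 126 in HINT1 (exon 3 of 3) and 147 to 153 of 163 in HINT2 (exon 5 of 5). In FHIT it covered codons 94 to 100 of 147 (exon 8 of 9) and in APTX codons 272 to 278 of 356 (exon 7 of 8). Of the 21 bases shown, HINT1, HINT2 and FHIT each shared 16 with HINT3, and APTX shared 14.

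The genes are scattered over the genome. HINT3 (ENSG00000111911) lies on chromosome 6, 125956781 to 125980244, plus strand, and HINT1 (ENSG00000169567) on chromosome 5, 131159027 to 131171735, minus strand. On chromosome 9, both on the minus strand, lie HINT2 (ENSG00000137133; 35812960 to 35815354) and APTX (ENSG00000137074; 32972606 to 33025168). FHIT (ENSG00000189283) spans 59749310 to 61251459 on chromosome 3, minus strand. HINT3 stands out in the length of its 3′ UTR, which takes 77.5% of its transcript of 3314 bases, against 50.1% in FHIT, 41.2% in APTX, 38.9% in HINT1 and 15% in HINT2.

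Expression is given in FPKM, fragments scaled by transcript length and library size, and values per library follow the order of replicates 1, 2 and 3. POU2F1, the targeted gene, stood at 4.16, 3.60 and 4.26 FPKM in the sicontrol libraries. In the siPOU2F1 libraries it stood at 1.87, 1.69 and 1.73 FPKM, so it was lower in every library labelled as knockdown. Its log2 fold change was -0.99 (SE 0.14, limma adjusted p = 0.0333), but leaving out 1 library at a time, siPOU2F1 replicate 3 excepted, gave adjusted p from 0.114 to 0.220. Called here means an adjusted p under 0.05 among the 11831 genes tested, those whose mean reached 1 FPKM. In total 147 genes were called (1.24%), 100 lower (0.845%) and 47 higher (0.397%), and 18.1% had an unadjusted p under 0.05. A single library stood apart: deviations of siPOU2F1 replicate 3 from its group mean correlated at r = 0.64 across genes with those of sicontrol replicate 2, and without it 2954 genes were called (25.0%) and 42.4% had an unadjusted p under 0.05. Without any 1 of the others limma called between 0 and 9, with 1176 to 2046 at an unadjusted p under 0.05. Genes are not independent, so that correlation describes the libraries only. Called genes and counts are therefore also given without siPOU2F1 replicate 3 where it decided them. Of 11 epithelial markers, 7 reached a mean of 1 FPKM, among them EPCAM, CDH1 and KRT18, while CEACAM5, CDX1, KRT20 and LGALS4 were at or near 0. Their summed level was 2705 to 3628 FPKM in sicontrol and 3740 to 5166 FPKM in siPOU2F1. Of 11 markers of other cell types, 3 reached that level (SYP, ACTA2 and COL1A1), PTPRC and COL3A1 were at 0 in every library, and the summed level was 7.79 to 9.02 FPKM in sicontrol and 10.6 to 14.0 FPKM in siPOU2F1. Their part in the results was not tested.

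The levels of the 5 genes in sicontrol cells fell in the order HINT1, HINT2, APTX, HINT3, FHIT, with no overlap between neighbours in that order. HINT1 alone held 70.2% ± 1.19 of the summed FPKM of the 5 genes (SD, n = 3), and its mean over the 6 libraries lay at the 97.3 percentile of tested genes. FHIT lay at the other end, at the 4.09 percentile. HINT2 was at the 85.6, APTX at the 63.6 and HINT3 at the 27.9 percentile. In siPOU2F1 cells the first 3 places were the same, but HINT3 and FHIT overlapped.

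HINT3 stood at 9.80, 7.59 and 9.73 FPKM in the sicontrol libraries. In the siPOU2F1 libraries it stood at 1.58, 1.73 and 1.39 FPKM. All siPOU2F1 libraries lay far below all sicontrol libraries, and siPOU2F1 replicate 3, which differed from its group in other genes, had the lowest value. The mean went from 9.04 ± 1.26 to 1.57 ± 0.168 FPKM (SD, n = 3 each), so that 17.3% of the sicontrol mean was left, compared with 44.0% for POU2F1 itself. The log2 fold change of HINT3 was -2.20 (SE 0.16) and ranked 8 from the lowest among all tested genes. It was -2.14 (SE 0.16) without siPOU2F1 replicate 3. In bulk RNA, a loss of HINT3 transcripts from every cell and a loss from only some cells cannot be told apart.

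**Figure D1:**
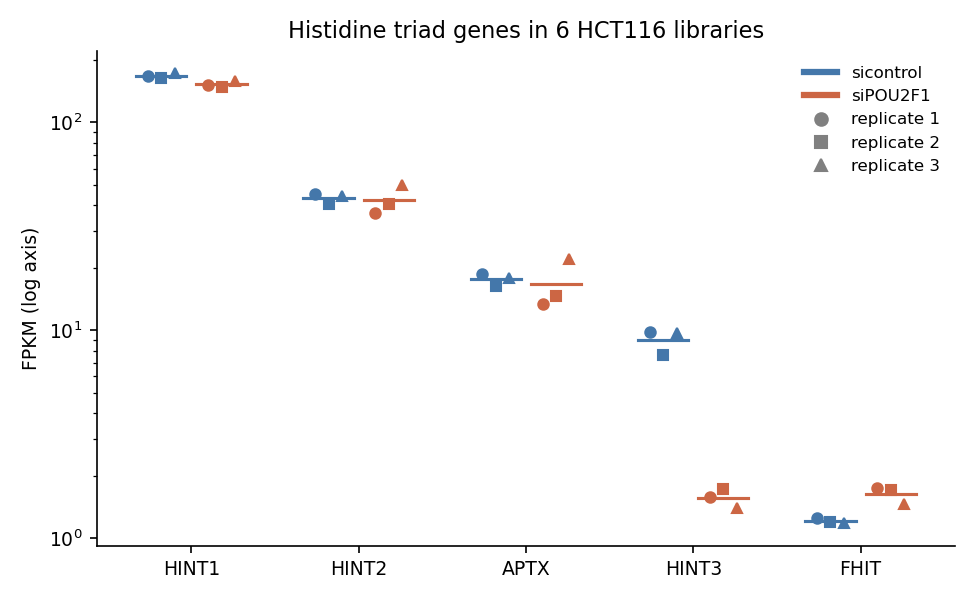
FPKM of the 5 histidine triad genes (log axis) in each library, with blue for sicontrol, orange for siPOU2F1, marker shape for the replicate number and a line at each group mean. HINT3 drops from 9.04 to 1.57 FPKM on average, to the level of FHIT, while HINT2 and APTX overlap between groups.

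HINT1, the most abundant member, stood at 167, 164 and 172 FPKM in the sicontrol libraries. The siPOU2F1 libraries gave 152, 147 and 159 FPKM. The groups did not overlap, but the difference was small: the means were 168 ± 4.39 and 153 ± 5.87 FPKM (SD, n = 3 each), or 91.0% of the sicontrol mean. The log2 fold change of -0.14 (95% interval -0.34 to 0.06) did not pass the test (limma adjusted p = 0.405), and an exact two-sided permutation test gave 0.1, the smallest p that 3 libraries against 3 can give. GENCODE names 2 HINT1 pseudogenes and 1 HINT2 pseudogene, and how reads were split between near-identical copies is not given in the sources used here.

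HINT2, the mitochondrial member, stood at 45.4, 40.4 and 44.4 FPKM in the sicontrol libraries. The siPOU2F1 libraries gave 36.6, 40.6 and 49.9 FPKM. The siPOU2F1 libraries lay on both sides of the sicontrol libraries, with replicate 1 the lowest and replicate 3 the highest of the 6. The log2 fold change was -0.04 (95% interval -0.36 to 0.27; limma adjusted p = 0.869; exact permutation p = 1), and -0.17 without siPOU2F1 replicate 3 (adjusted p = 0.248). HINT2 shares 80.4% of its exonic bases with a further annotated gene on the same strand (ENSG00000285645), which was listed at 0 in every library, and 19.6% with TMEM8B on the opposite strand. TMEM8B had means of 1.71 ± 0.495 and 3.13 ± 1.16 FPKM (SD, n = 3 each; not called, limma adjusted p = 0.292), far below HINT2, but with no strand setting given the assignment of reads at this locus is uncertain.

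FHIT, the diadenosine hydrolase, was the 1 member with a positive log2 fold change. It stood at 1.26, 1.20 and 1.18 FPKM in the sicontrol libraries. In the siPOU2F1 libraries it stood at 1.75, 1.70 and 1.46 FPKM. All siPOU2F1 libraries lay above all sicontrol libraries, with replicate 3 nearest to them. The means of 1.22 ± 0.0393 and 1.64 ± 0.155 FPKM (SD, n = 3 each) put it at 135% of the sicontrol mean, and the log2 fold change of 0.32 (95% interval -0.06 to 0.69) did not pass the test (limma adjusted p = 0.336; exact permutation p = 0.1). Without siPOU2F1 replicate 3 it was 0.38 (adjusted p = 0.107). With so low a level, 0.5 added to each FPKM before taking logs shrinks this change: with 0.1 added it was 0.40.

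APTX stood at 18.7, 16.3 and 17.8 FPKM in the sicontrol libraries. The siPOU2F1 libraries gave 13.3, 14.7 and 22 FPKM. Both siPOU2F1 replicates 1 and 2 lay below every sicontrol library, and siPOU2F1 replicate 3 lay above every one. The log2 fold change was -0.11 (95% interval -0.56 to 0.35; limma adjusted p = 0.770; exact permutation p = 0.9), and without siPOU2F1 replicate 3 it was -0.32 (95% interval -0.58 to -0.06; adjusted p = 0.0736). The APTX value in siPOU2F1 cells thus depended on that library more than the values of HINT1 or FHIT did.

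None of the 4 members other than HINT3 was called by limma, and with all libraries 0 of them had an unadjusted p under 0.05. Without siPOU2F1 replicate 3 none was called either, although FHIT (0.0430) and APTX (0.0241) then had an unadjusted p under 0.05, as had 42.4% of all tested genes. Of these 4, HINT1 was lower without overlap, as were 12% of all tested genes, and FHIT was higher without overlap, as were 11.3%. With all libraries, the intervals of all 4 include 0 and leave room for changes in either direction, so similar levels are not shown for them.

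**Figure D2:**
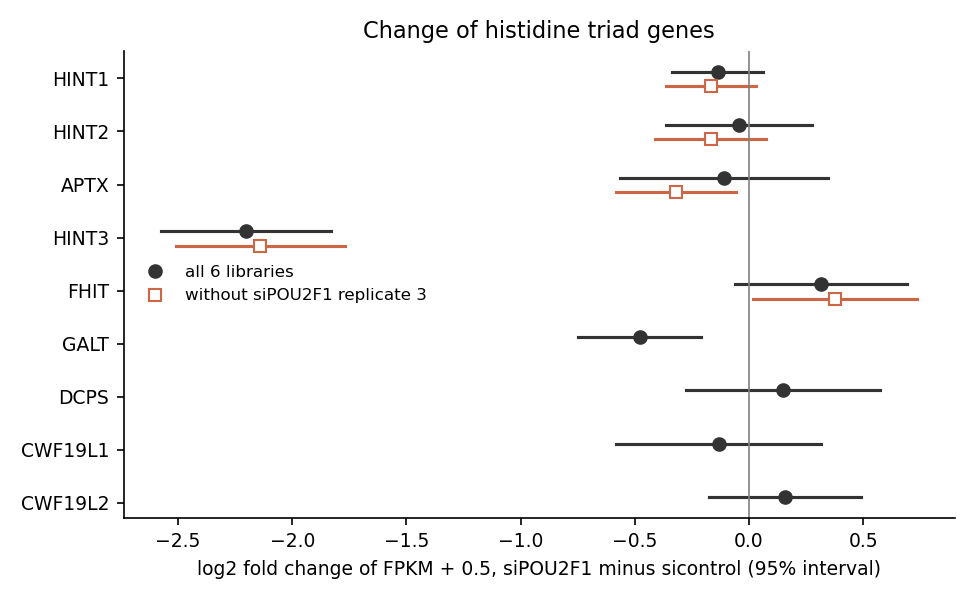
Log2 fold change of FPKM + 0.5 (siPOU2F1 minus sicontrol) for the 5 histidine triad genes and 4 further genes of the fold, with 95% intervals from limma. Filled circles use all 6 libraries. Open squares, drawn for the 5 histidine triad genes only, leave out siPOU2F1 replicate 3. With all 6 libraries HINT3 (-2.20) lies far to the left of the others, which lie between -0.48 (GALT) and 0.32 (FHIT).

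Within libraries, the place of HINT3 in the family differed between the groups. The ratio of HINT3 to FHIT was 7.78, 6.30 and 8.23 in the sicontrol libraries and 0.901, 1.02 and 0.954 in the siPOU2F1 libraries. HINT3 supplied 4.09% ± 0.445 of the summed FPKM of HINT1, HINT2 and HINT3 in sicontrol and 0.801% ± 0.127 in siPOU2F1 (SD, n = 3 each). The ratio of HINT1 to HINT2 was 3.87 ± 0.180 and 3.65 ± 0.479 (SD, n = 3 each) and overlapped between groups. These ratios include the gene chosen for its fall and carry no test.

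Other human proteins with a histidine triad or related fold were examined as a list of 4, and none was called by limma (1 had an unadjusted p under 0.05, beside 18.1% of all tested genes). GALT, the uridylyltransferase of galactose breakdown, stood at 10.4, 11.6 and 11.1 FPKM in the sicontrol libraries and at 7.78, 7.30 and 8.24 FPKM in the siPOU2F1 libraries. Its groups did not overlap, and its log2 fold change was -0.48 (SE 0.11, limma adjusted p = 0.106; -0.52 and 0.0222 without siPOU2F1 replicate 3). DCPS, the scavenger decapping enzyme, had 0.15 (adjusted p = 0.657), CWF19L1 had -0.13 (0.710) and CWF19L2, its paralogue, 0.16 (0.551). The list median was 0.01, against -0.01 over all tested genes.

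At the HINT3 locus, none of the neighbouring genes that could be tested was called with all libraries. Without siPOU2F1 replicate 3, 1 of the 5, TRMT11, was called higher, beside 25.0% of all tested genes called in either direction. TRMT11, a tRNA guanosine methyltransferase subunit, starts 6.19 kb beyond the end of HINT3 on the same strand (125986430 to 126203817). It stood at 9.54, 10.1 and 12.6 FPKM in the sicontrol libraries and at 19.1, 18.4 and 11.2 FPKM in the siPOU2F1 libraries. Its siPOU2F1 replicates 1 and 2 were above every sicontrol library, whereas replicate 3 lay among them, and the log2 fold change of 0.55 (SE 0.22) was not called (limma adjusted p = 0.262). Without siPOU2F1 replicate 3 it was 0.78 (SE 0.14, adjusted p = 0.0144). NCOA7, a nuclear receptor coactivator gene 24.8 kb on the other side (125781161 to 125932030), had means of 7.52 ± 0.225 and 8.32 ± 0.432 FPKM (SD, n = 3 each; log2 fold change 0.14, adjusted p = 0.516). Further out, HEY2, a NOTCH-responsive repressor, had 0.63 (adjusted p = 0.15), HDDC2 -0.39 (0.216) and CENPW, a centromere protein gene, 0.40 (0.380). The 5 tested neighbours thus had log2 fold changes from -0.39 to 0.63, and from -0.43 to 0.78 without siPOU2F1 replicate 3.

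Around the other members, too, none was called with all libraries. Taking the 3 nearest genes on each side of every member gave 30 genes, of which 15 were tested and 0 called (limma), beside 1.24% of all tested genes. An unadjusted p under 0.05 was found for 6 of the 15, of which 3 were neighbours of HINT3, beside 18.1% of all tested genes. When siPOU2F1 replicate 3 was left out, 1 of the 15 was called lower and 3 higher, beside 25.0% of all tested genes called in either direction. Of the 15, 2 were lower and 4 higher without overlap, beside 12% and 11.3% of all tested genes. DNAJA1, a cochaperone gene that starts 0.043 kb from the start of APTX and runs the other way, had means of 61.6 ± 13.1 and 53.9 ± 5.48 FPKM (SD, n = 3 each; log2 fold change -0.18, adjusted p = 0.583). The gene with the lowest p was NDUFB6, a respiratory complex I subunit gene 399 kb from APTX, with 0.70 (adjusted p = 0.0594), and 0.79 without siPOU2F1 replicate 3 (adjusted p = 0.00973). Nearest to FHIT, CFAP20DC had 0.21 (0.553) and PTPRG, a receptor tyrosine phosphatase, 0.09 (0.737). Next to HINT1, CDC42SE2, an effector of CDC42, had -0.07 (0.794), while CHSY3 on the other side was under 1 FPKM. The genes nearest to HINT2, SPAG8 and FAM221B, were under 1 FPKM as well, as was TMEM215 beside APTX. LYRM7, a mitochondrial assembly factor gene that overlaps HINT1 on the opposite strand without shared exonic bases, had 0.17 (0.597).

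**Figure D3:**
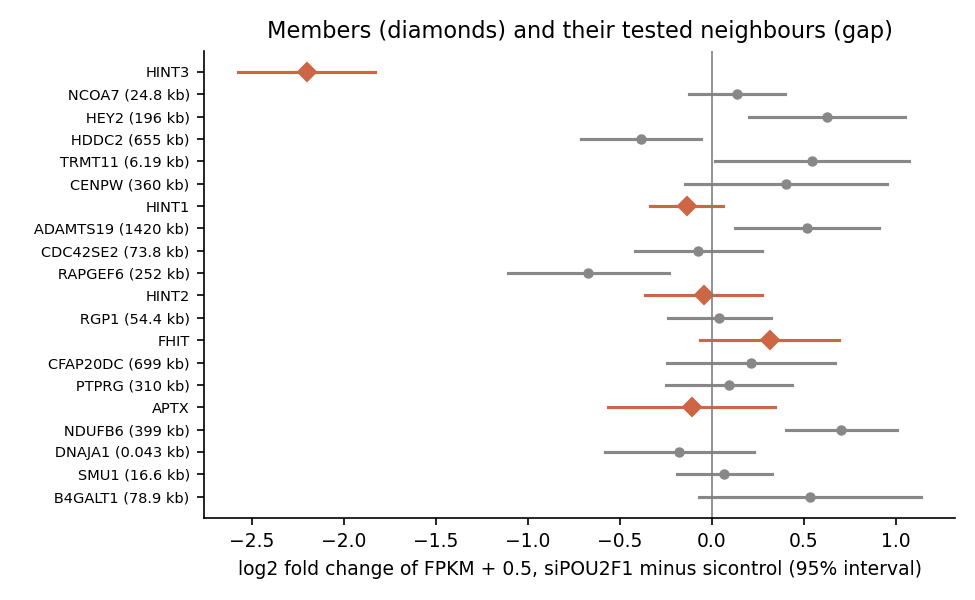
Log2 fold change of FPKM + 0.5 (siPOU2F1 minus sicontrol) with 95% intervals for each histidine triad gene (orange diamonds) and its tested neighbours (grey circles), labelled with the gap in kb between the genes. None of the 5 tested neighbours of HINT3 lies below -0.39, against -2.20 for HINT3.

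The genes whose values were most like those of HINT3 were ranked by the root mean square difference, over the 6 libraries, of log2(FPKM + 0.5) after subtracting each gene's own mean. FYCO1, an adaptor of autophagosome transport, came first at 0.217, followed by KIF3B, a kinesin motor, at 0.329 and CDC42, a GTPase of cell polarity, at 0.342. USP25, a deubiquitinase, followed at 0.367, and ENSG00000255508, which has no symbol in the files, at 0.374. The median over the other 11830 tested genes was 1.12. POU2F1 ranked 47 at 0.612. HINT1 (1.04, rank 3384), APTX (1.08, rank 4631) and HINT2 (1.10, rank 4998) lay under that median, and FHIT (1.26, rank 9811) lay above it. FYCO1 stood at 10.4, 10.4 and 11.3 FPKM in the sicontrol libraries and at 2.30, 2.30 and 2.74 FPKM in the siPOU2F1 libraries, so it resembled HINT3 in level as well as in change. The ranking picks genes that differ between the groups as HINT3 does and describes only these libraries.

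**Figure D4:**
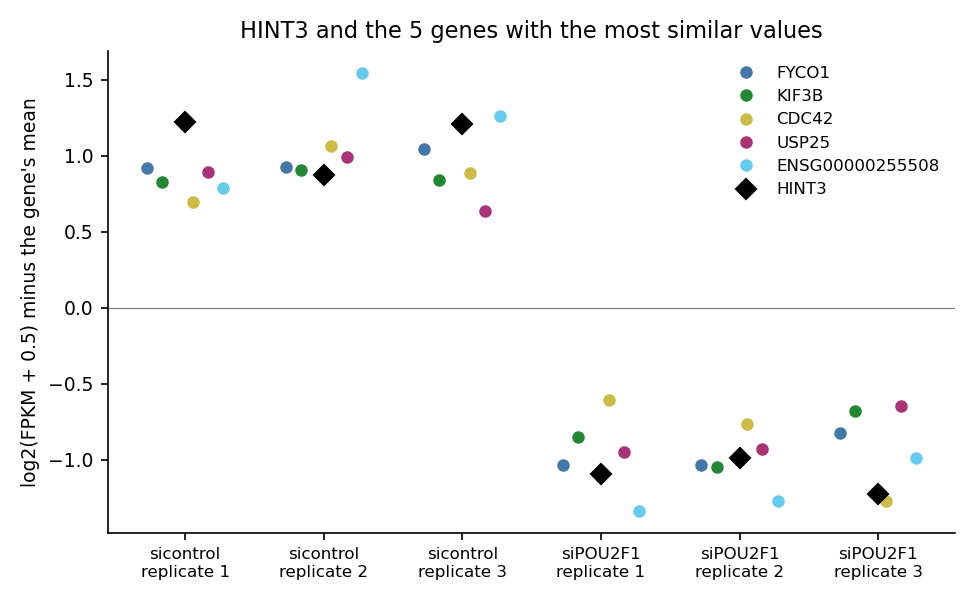
Log2(FPKM + 0.5) minus each gene's mean over the 6 libraries, for HINT3 (black diamonds) and the 5 genes with the smallest root mean square difference from it (0.217 for FYCO1 to 0.374 for ENSG00000255508). All 6 genes are positive in the sicontrol libraries and negative in the siPOU2F1 libraries.

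The 3′ UTRs were searched on the transcript strand for AACTGCA and AGAATGA, words that had come up earlier from the fold changes of these same libraries, so their presence in HINT3 is a description. HINT3 held AACTGCA in 1 place and AGAATGA in 0. The 3′ UTRs of HINT1, HINT2, FHIT and APTX held neither word, but at 420, 94, 819 and 749 bases they were all shorter than the 2568 bases of HINT3. Among 11518 tested genes with a 3′ UTR of at least 20 bases, 12.4% held AACTGCA and 14.9% held AGAATGA. These shares were not matched to the length of the HINT3 3′ UTR. The place in HINT3 is shown because HINT3 was the 1 member to hold either word, with the word in capitals.
HINT3: gaattttcaacAACTGCAatctttgattg
It begins at base 1715 of the 3′ UTR, in exon 5 of 5, and the 29 bases shown are at chr6:125979380-125979408 on the plus strand of GRCh38.

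Promoter windows from RefSeq (GRCh38.p14), each from 250 bases before to 50 bases after a start site, were matched for 3 members: 1 for HINT1, 2 for FHIT and 2 for APTX. POU2F1 protein binds the octamer ATGCAAAT, which was searched on both strands. None of the 5 windows held it, and 1.77% of 35116 windows did. Its first 7 bases, ATGCAAA, which the full octamer contains, were found in 1 of the 5 windows and in 4.46% of all windows. That window belongs to a start site within the FHIT gene, and the stretch is shown because it was the 1 match found to either word, with the 7 bases in capitals.
FHIT: gttgccaatgaATGCAAAactcagaaagga
The stretch is at chr3:60080935-60080964 and is written along the minus strand, the strand of FHIT. FPKM values per gene do not show which start site was used.

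Genes around the family were examined in lists, each described by its counts. With all libraries, the share over all tested genes was 0.845% called lower and 0.397% called higher. A list of 13 genes was drawn up whose proteins are linked to HINT1, directly or through a shared complex. All 13 were tested, of which 1 was called lower and 0 higher. That gene was USF2, a transcription factor that binds E-boxes. USF2 stood at 48.1, 46.1 and 46.5 FPKM in the sicontrol libraries and at 25.6, 25.7 and 29.5 FPKM in the siPOU2F1 libraries. The siPOU2F1 libraries lay well below all sicontrol libraries, and the log2 fold change was -0.79 (SE 0.10, limma adjusted p = 0.0263). The adjusted p was 0.00518 without siPOU2F1 replicate 3, but between 0.0968 and 0.184 without any 1 of the other 5 libraries. KARS1, the lysyl-tRNA synthetase whose adenylates HINT1 cleaves, had means of 72.6 ± 6.23 and 90.5 ± 1.77 FPKM (SD, n = 3 each; log2 fold change 0.32, adjusted p = 0.167), higher in all siPOU2F1 libraries than in any sicontrol library. With siPOU2F1 replicate 3 left out, 2 genes of this list, USF2 and AIMP2, were called lower and 0 higher. In that setting 25.0% of all tested genes were called in either direction. AIMP2 then had -0.96 (limma adjusted p = 0.0125), against -0.45 with all libraries (0.549). MITF, a pigment-cell and lysosome regulator that HINT1 represses, had -0.33 with all libraries (adjusted p = 0.391). The list median was 0.05.

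APTX acts on broken DNA ends, and none of 19 listed genes of that repair was called (limma; 2 had an unadjusted p under 0.05, beside 18.1% of all tested genes), with a median of -0.002. With siPOU2F1 replicate 3 left out, 2 were called lower and 0 higher. LIG4, the ligase of end joining, had the lowest p. It stood at 6.91, 8.20 and 6.97 FPKM in the sicontrol libraries and at 2.18, 2.25 and 4.46 FPKM in the siPOU2F1 libraries. No siPOU2F1 library reached the sicontrol range, and the log2 fold change of -1.24 (SE 0.25) had a limma adjusted p of 0.0743. Without siPOU2F1 replicate 3, the highest of its group, it was -1.53 (adjusted p = 0.00424). NHEJ1, an end-joining scaffold, had 0.42 (0.230). The scaffolds that bind aprataxin, XRCC1 and XRCC4, had 0.04 (0.839) and 0.24 (0.548).

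The nudix hydrolases, among them enzymes that cleave the same dinucleotides as FHIT, had 20 of 22 genes tested and 0 called (limma; 4 had an unadjusted p under 0.05, beside 18.1% of all tested genes). Their median was 0.16 and 14 of the 20 values were positive, beside 48.5% over all tested genes. NUDT3 had 0.43 (adjusted p = 0.179), NUDT9, an ADP-ribose hydrolase, 0.33 (0.235) and NUDT7, a peroxisomal coenzyme A hydrolase, 0.55 (0.252; 0.73 and 0.0368 without siPOU2F1 replicate 3). The fourth gene with an unadjusted p under 0.05, NUDT19, another coenzyme A hydrolase, had -0.61 (0.272; -0.90 and 0.0101 without siPOU2F1 replicate 3). NUDT7 and NUDT19 were the 2 nudix genes called without that library, beside 25.0% of all tested genes called in either direction. NUDT2, the main diadenosine tetraphosphate hydrolase, had 8.13 ± 1.19 and 10.5 ± 2.12 FPKM (SD, n = 3 each; 0.34, adjusted p = 0.358) with overlapping groups. Among 5 listed FHIT partners none was called (limma; 2 had an unadjusted p under 0.05, beside 18.1% of all tested genes). With siPOU2F1 replicate 3 left out, 1 was called lower and 2 higher. HSPE1, a mitochondrial cochaperonin, had 0.57 (adjusted p = 0.269; 0.78 and 0.0391 without that library). FDXR, the ferredoxin reductase, had 0.39 (0.348; 0.58 and 0.0414 without it). The list median was 0.17, and 0.34 without it. Of 14 large genes at other common fragile sites, 6 were tested and 0 called (limma). With all libraries 0 had an unadjusted p under 0.05, beside 18.1% of all tested genes. Without siPOU2F1 replicate 3, 2 had, beside 42.4% of all tested genes. The median was 0.12, and 0.22 without that library. NBEA had 0.55 (0.301) and IL1RAPL1 0.11 (0.655). LRP1B and CTNNA3 were at 0 in every library, and the mean of FHIT was above that of 8 of the 14, which stayed under 1 FPKM.

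**Figure D5:**
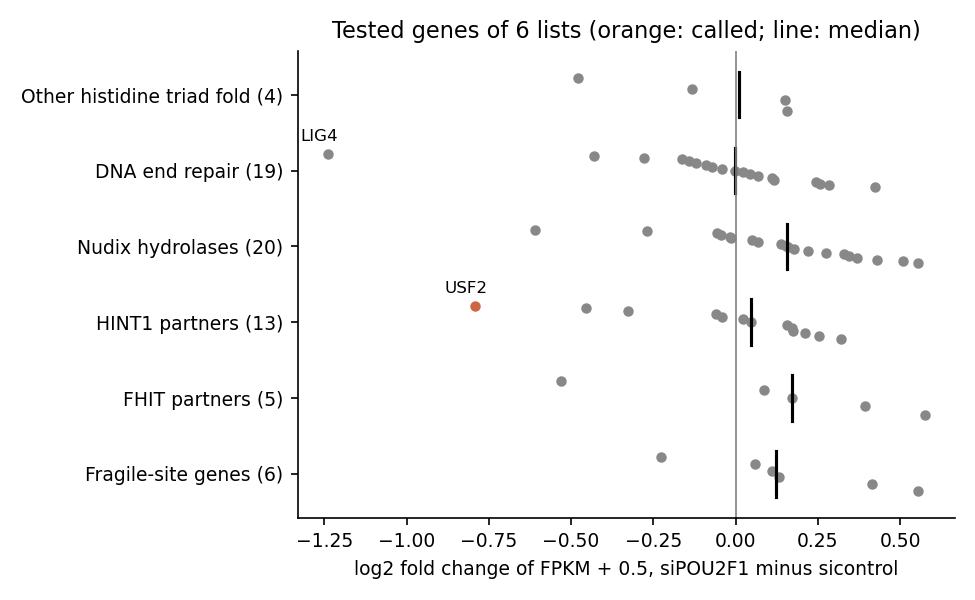
Log2 fold change of FPKM + 0.5 (siPOU2F1 minus sicontrol) of each tested gene in 6 gene lists, with the number tested in brackets, a black line at the list median and orange for a called gene. USF2 (-0.79) is the called gene, and LIG4 (-1.24) is the lowest value.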

How the data were processed

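PolyA RNA of HCT116 cells was measured in 3 sicontrol and 3 siPOU2F1 libraries, each made from 2 µg of total RNA with a directional kit, per the labels' protocols. FPKM values were deposited by the authors, 1 table for each library, with 20474 annotated genes and 2308 assembled transcripts that were not used here. HISAT2 2.0.4, Bowtie2 2.2.5, StringTie 2.1.2 and hg38 are named in the submitters' processing notes without their roles. Annotation release, filters and strand setting: not given in the sources used here. Depth is unknown from FPKM, so no counting error can be given.

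FPKM were used as deposited, as log2(FPKM + 0.5), for the 11831 annotated genes with a mean of at least 1. Limma 3.58.1 in R 4.3.3 compared the groups with a mean-variance trend, and p-values were adjusted by Benjamini-Hochberg over every tested gene. Fold changes on this scale understate the change of low genes. All tests are two-sided, and 95% intervals are limma's. On data simulated for this comparison (11831 genes, 200 changed, 10 runs), the fit called 56.1% of genes given a log2 change of 1 and 88.8% of those given a change of 2. Gene models and transcript sequences came from GENCODE 29 (GRCh38, to which hg38 corresponds); coordinates are 1-based.

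The text names POU2F1, the members, all genes of the list of related folds, the called genes and the 3 of lowest p of each other list, the nearest neighbours, and the 5 genes most like HINT3. Other genes were named after their values were seen. The members and lists were chosen with earlier results of these data known. Alternatives were other pseudocounts, filters, scalings, library weights, a replicate block and leaving out each library. Other software was Biopython 1.88, matplotlib 3.10.9, scipy 1.17.1, pandas 2.3.3 and numpy 2.4.6 in Python 3.11.15.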

Additional observations from a re-analysis of the deposited data

How the results depend on the processing

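HINT3 and HINT1 were lower in siPOU2F1 under every alternative run, and FHIT was higher under all except the filter at 5 FPKM, which it did not pass. With pseudocounts of 0.1 and 1 the log2 fold change of HINT3 was -2.45 and -1.96. HINT2 and APTX turned positive without siPOU2F1 replicate 1 (0.053 and 0.031). With single libraries left out HINT3 ranged from -2.32 to -2.14, APTX from -0.32 to 0.031 and HINT2 from -0.17 to 0.053. With library quality weights, where 5963 of all tested genes were called, HINT1 (-0.17), FHIT (0.34) and APTX (-0.33) were called. POU2F1 was -0.99 with no filter on low values and with the replicate block, not called in either, and -1.06 to -0.95 with single libraries left out. Over all genes, 72 were called with no filter on low values, 0 with the replicate block (limma; 1208 at an unadjusted p under 0.05) and from 0 to 2954 with single libraries left out. In the 6 gene lists, 1 gene was called in the fit with all libraries, 27 with quality weights, 0 with the replicate block and from 0 to 10 with single libraries left out. Same-numbered libraries shared only a number in the labels, and their deviations correlated at 0.13, -0.54 and -0.51. Deviations from a mean of 3 libraries depend on each other, so these values cannot settle whether the block suits the design. The cause of these differences between settings was not tested. FPKM hold no depth, so the precision of the low values of FHIT and of HINT3 in siPOU2F1 is unknown.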
